A study of Mus musculus with 24 samples.

Results

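Levels of 39 genes that restrain the 2-cell state, or are otherwise tied to it, were followed through 24 RNA-seq libraries of mouse embryonic stem cells. The members were listed by symbol and matched to GENCODE mouse release M21 gene IDs, which found all 39 among the 55487 genes counted. All 39 passed the filter on low counts in both fits. The cells were KH2 embryonic stem cells, a line built for doxycycline-driven transgenes, and every line carried a DUX transgene behind such a promoter (TRE_DUX), the controls included. Doxycycline (DOX) was given for 16 h or not at all, with 2 libraries per group in 12 groups. WT and DUXBL-KO cells made up 8 libraries, called the plain set here. The other 16, the pLV2 set, all had pLV2 in their titles and came from TRIM33-KO cells, TRIM24-KO cells and a pair of WT lines, here lines 1 and 2. The labels do not explain pLV2, do not say whether a line is 1 clone, do not pair a WT line with a knockout, and do not say whether the 2 libraries of a group came from separate cultures. The p-values therefore measure the spread between these libraries, which may be technical.

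A few cells in embryonic stem cell cultures pass through a state resembling the embryo at the stage when its own genome is first switched on, and the transcription factor Dux drives that program. Chromatin repressors hold it back. PRC1.6, a variant Polycomb complex, is brought to E-box and E2F sites by Mga with Max and by E2f6. Setdb1, Ehmt1 with Ehmt2, and the Suv39h enzymes methylate histone H3 on lysine 9, which HP1 proteins bind. LSD1 (Kdm1a) with CoREST and histone deacetylases removes active marks, and CAF-1 (Chaf1a, Chaf1b) deposits histones behind the replication fork. The list is wider than its working name: Dppa2 and Dppa4 are known as activators of Dux, and Kat5 is an acetyltransferase, although loss of its partner Ep400 is known to favour 2-cell-like cells.

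The libraries held 11784696 to 19136869 gene counts. Dux had 0 to 2 counts in each library without DOX and 20 to 110 with it, which follows the titles. In 8 libraries of the pLV2 set the tag for treatment contradicts the title. Trim33 stood at 16.9 to 21.4 CPM (counts scaled to library size, with TMM factors) in the TRIM33-KO libraries and at 85.2 to 165 in the other pLV2 libraries. Trim24 in the libraries labelled TRIM24-KO (120.3 to 137 CPM) lay above WT line 1 (94.5 to 100.2) and below WT line 2 (165 to 199) and TRIM33-KO (221 to 271). Duxbl1 in those labelled DUXBL-KO overlapped WT (0.321 to 11.1 CPM, against 0.364 to 8.34), so these 2 lines are named by their labels only. The counts cover whole genes, and the labels do not say which part of a gene was edited. Pou5f1 (500.1 to 833 CPM) and Nanog (315 to 713) were expressed in every library. Of 15 pluripotency genes, 9 fell and 1 rose with DOX in TRIM33-KO (median log2 -0.40), while TRIM24-KO had 6 and 1 (-0.16), line 2 had 9 and 1 (-0.27) and line 1 had 3 and 3 (-0.08). Of all genes tested, 20.1% fell and 16.5% rose in TRIM33-KO, 4.94% and 11.5% in TRIM24-KO, 14% and 12.7% in line 2, and 6.25% and 10% in line 1. Without DOX 9 of the 15 were lower and 3 higher in line 2 than in line 1, 8 and 3 in TRIM24-KO than in the WT lines, and 7 and 2 in TRIM33-KO. Their part in the members' changes was not tested. A single gene, CT010467.1, took 30.4% of the gene counts in TRIM24-KO DOX replicate 2 and 12.9% in TRIM33-KO DOX replicate 2. Some of the values that hinge on it are given below, not all.

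Per length, the members spanned a wide range in WT cells without DOX. On the RPKM scale (CPM per kilobase of merged exons), Sumo2, a small modifier that marks repressors, was highest at 125.6 ± 19.5 (SD, n = 2). Rif1, a replication-timing factor, followed at 86.5 ± 1.33, then Cbx5 (HP1 alpha) at 72.4 ± 6.04. The lowest were E2f6 at 3.36 ± 0.13, Yaf2 at 3.34 ± 0.14 and Ring1 at 2.00 ± 0.01. Yaf2 and its relative Rybp are alternative subunits of variant PRC1, and Ring1 and Rnf2 alternative ubiquitin ligases. In each pair the lower member was well below the other: Rybp stood at 20.8 ± 0.25 and Rnf2 at 29.1 ± 0.26. E2f6 and Yaf2, neighbours in this order, did not differ beyond their spread.

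Promoter sequence is shown for the member with the largest DOX rise (Zfp809) and for 2 members that fell with DOX in 3 lines and hold the E-box CACGTG, the letters that Mga with Max is known to bind (Ehmt2, Kat5). The sequences are RefSeq's, on GRCm38.p6, read 5′ to 3′ on the gene's strand up to the RefSeq start, and ended earlier where the GENCODE gene begins; capitals mark CACGTG, which reads the same on both strands.
Zfp809, chr9:22225453-22225702 (+): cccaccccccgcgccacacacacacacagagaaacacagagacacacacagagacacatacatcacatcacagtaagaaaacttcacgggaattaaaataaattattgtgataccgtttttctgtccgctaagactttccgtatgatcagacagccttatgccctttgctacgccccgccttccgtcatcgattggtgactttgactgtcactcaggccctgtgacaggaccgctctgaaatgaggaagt
Ehmt2, chr17:34898224-34898468 (+): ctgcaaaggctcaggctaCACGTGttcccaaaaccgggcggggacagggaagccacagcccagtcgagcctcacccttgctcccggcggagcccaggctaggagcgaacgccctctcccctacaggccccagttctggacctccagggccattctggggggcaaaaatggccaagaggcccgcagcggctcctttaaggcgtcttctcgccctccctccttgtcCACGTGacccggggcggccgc
Kat5, chr19:5610238-5610344 (-): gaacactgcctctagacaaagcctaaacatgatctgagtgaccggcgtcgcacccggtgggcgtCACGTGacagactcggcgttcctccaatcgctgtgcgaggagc
Zfp809 has no CACGTG in this window. RefSeq windows were at hand for 33 members. The E-box was found in the 250 bases before the start of 4 of them (12.1%: Cbx5, Chaf1a, Ehmt2 and Kat5), against 6.86% of 27025 genes. Mga, Max, Mphosph8, Rcor1 and Morc3 also fell with DOX in at least 3 lines, and their windows lack it. Of the other carriers, Chaf1a rose in TRIM33-KO and Cbx5 passed the threshold given below in no line. A match describes letters, not a bound site.

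The response to DOX in each line was asked next. In all 4 pLV2 lines Zfp809 and Dppa2 rose by log2 0.94 to 2.96, Setdb1 rose by 0.22 to 0.25 and Mga fell; the Setdb1 calls, taken up below, were the least stable of these. These 4 were the only members past the threshold (adjusted p under 0.05, edgeR's quasi-likelihood test over all genes) in all 4. Of the 39 members, 14 passed in no line, 8 rose in at least 1 line, 17 fell in at least 1, and none moved both ways. Of the 54 member-and-line pairs past the threshold, 41 changed by less than 1.5-fold. In the plain set none of the 39 passed in WT cells, where 2.93% of all genes did. There 3 had an unadjusted p under 0.05, as did 1954 of the 18060 genes tested, and DESeq2 called 1 member, Dppa2. Dppa2 alone passed in the line labelled DUXBL-KO, where 4.91% of genes did. With the replicate number as a block 1 passed in WT (Dppa2) and 3 in DUXBL-KO (Dppa2, Zfp809 and Setdb1). Of the genes tested in WT, 2.82% rose and 0.105% fell, and in DUXBL-KO 4.5% rose and 0.404% fell. In TRIM33-KO 7 members rose and 15 fell (56.4% of members past the threshold, against 36.6% of all genes, of which 16.5% rose and 20.1% fell). In WT line 2 the counts were 4 and 10 (35.9% of members, against 26.8% of genes, 12.7% up and 14% down). In WT line 1 they were 3 and 6 (23.1%, against 16.3%, 10% up and 6.25% down). In TRIM24-KO they were 5 and 3 (20.5%, against 16.4%, 11.5% up and 4.94% down). The members' median log2 change was -0.14 in TRIM33-KO, -0.13 for WT line 2, -0.08 for WT line 1 and -0.01 in TRIM24-KO, beside -0.09, -0.07, -0.03 and 0.00 over all genes tested.

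**Figure D1:**
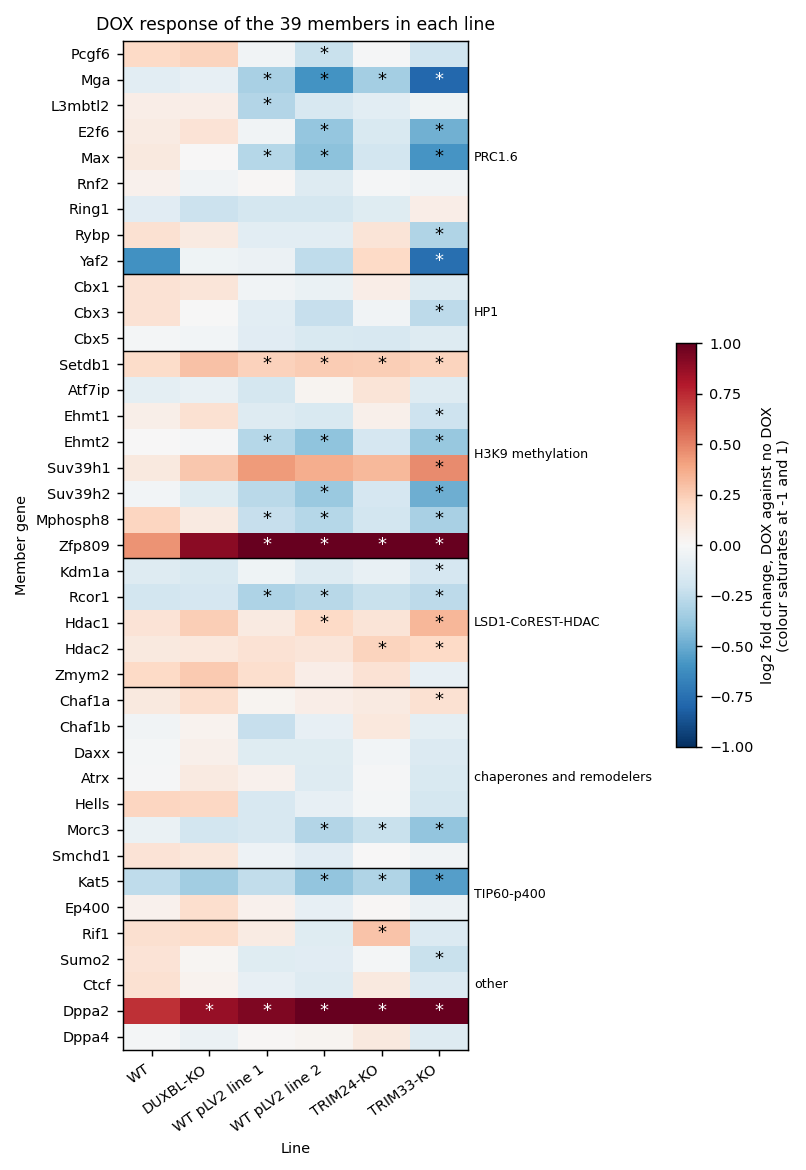
Log2 fold change with DOX (colour, saturating at -1 and 1) of the 39 members (rows, by role) in each of the 6 lines (columns); an asterisk marks adjusted p under 0.05, and knockout names are the labels. Dppa2 and Zfp809 are the strongest red rows, Mga is blue in every column, and Dppa4 has no asterisk.

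The split between higher and lower members depended on scaling, which acts on all genes of a library alike. With repeat counts in the library sizes TRIM33-KO had 4 higher and 22 lower, line 2 had 3 and 16, and line 1 had 2 and 9. Relative log expression (RLE) factors gave 7 and 10 for TRIM33-KO, 4 and 4 for TRIM24-KO and 5 and 9 for line 2. Leaving CT010467.1 out of the library sizes gave 3 and 7 for TRIM24-KO and 4 and 4 for line 1. DESeq2, which also changes the test, gave 7 and 7 for TRIM33-KO and 4 and 5 for line 2. Of the 54 pairs, 22 stayed past the threshold whichever library of the comparison was left out, and 8 were lost each time.

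The strongest responder was Zfp809, a KRAB zinc finger protein that recruits Trim28 and Setdb1 to silence proviruses (chromosome 9, 22225714 to 22243354, GRCm38, plus strand). Without DOX the TRIM33-KO libraries read 17.2 and 15.9 CPM, those of WT line 2 read 21.6 and 19.7, those of WT line 1 read 30.7 and 35.01, and those labelled TRIM24-KO read 55.8 and 51.3. With DOX they read 133 and 124, 93.9 and 86.9, 89.7 and 101, and 156 and 197. No DOX library overlapped the untreated libraries of its own line. The log2 changes were 2.96 ± 0.11 (SE) in TRIM33-KO, 2.13 ± 0.11 for line 2, 1.54 ± 0.11 for line 1 and 1.72 ± 0.10 in TRIM24-KO, with adjusted p of 9.62e-13, 8.44e-11, 7.59e-09 and 6.73e-10 by edgeR. In the plain set the untreated WT libraries read 59.8 and 41.2 CPM and the treated ones 87.4 and 50.2, which overlap, although the treated library was the higher one under both replicate numbers. Those labelled DUXBL-KO went from 44.1 and 43.7 to 89.9 and 74.2, without overlap, a log2 change of 0.90 ± 0.28 that missed the threshold (adjusted p = 0.165). With the replicate number as a block, since same-numbered plain libraries deviated together, it passed (0.89, adjusted p = 0.0126), as it did with DESeq2 (adjusted p = 0.0301). The summed CPM of 9 genes typical of 2-cell-like cells with DOX was 7474 to 8089.9 in TRIM33-KO, 4076 to 5575 for line 2, 1625 to 2503 in TRIM24-KO and 1415 to 1745 for line 1, and at most 5.79 without DOX. The ranges of TRIM24-KO and line 1 overlap, and the part of these cells in the Zfp809 values was not tested. In bulk RNA, more responding cells and more RNA per responding cell cannot be told apart.

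Dppa2, a DNA-binding partner of Dppa4, was the other strong responder (chromosome 16, 48303908 to 48319723, plus strand). Its untreated libraries read 79.2 and 83.5 CPM in TRIM24-KO, 54.1 and 61.5 in TRIM33-KO, 54.5 and 51.5 for WT line 2, and 76.4 and 78.5 for WT line 1. The treated ones read 242 and 281, 159 and 155, 123 and 112, and 145 and 151 in the same order. Every treated library lay above all untreated ones in the set. The log2 changes were 1.68 ± 0.08, 1.44 ± 0.08, 1.15 ± 0.08 and 0.94 ± 0.08, each with an adjusted p of at most 1.27e-07 by edgeR. In the plain set Dppa2 rose from 94.4 and 92.9 CPM to 167 and 175 in the line labelled DUXBL-KO (log2 0.87 ± 0.15, adjusted p = 0.0160), a call lost when any of the 4 libraries was left out (adjusted p 0.0709 to 0.101). In WT they were 96.3 and 74.9 untreated and 157 and 127 treated (log2 0.73 ± 0.15, adjusted p = 0.0504), which passed with the block (adjusted p = 0.00789). Dppa4, whose gene lies 9.67 kb from Dppa2 on the same strand, passed in no line: its log2 values with DOX ranged from -0.13 to 0.10. Some 25.7% of the 75-base stretches of Dppa2 transcripts also occur in another gene, on either strand, most often Gm9788. For Dppa4 the share was 20.1%, most often with Gm14058.

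**Figure D2:**
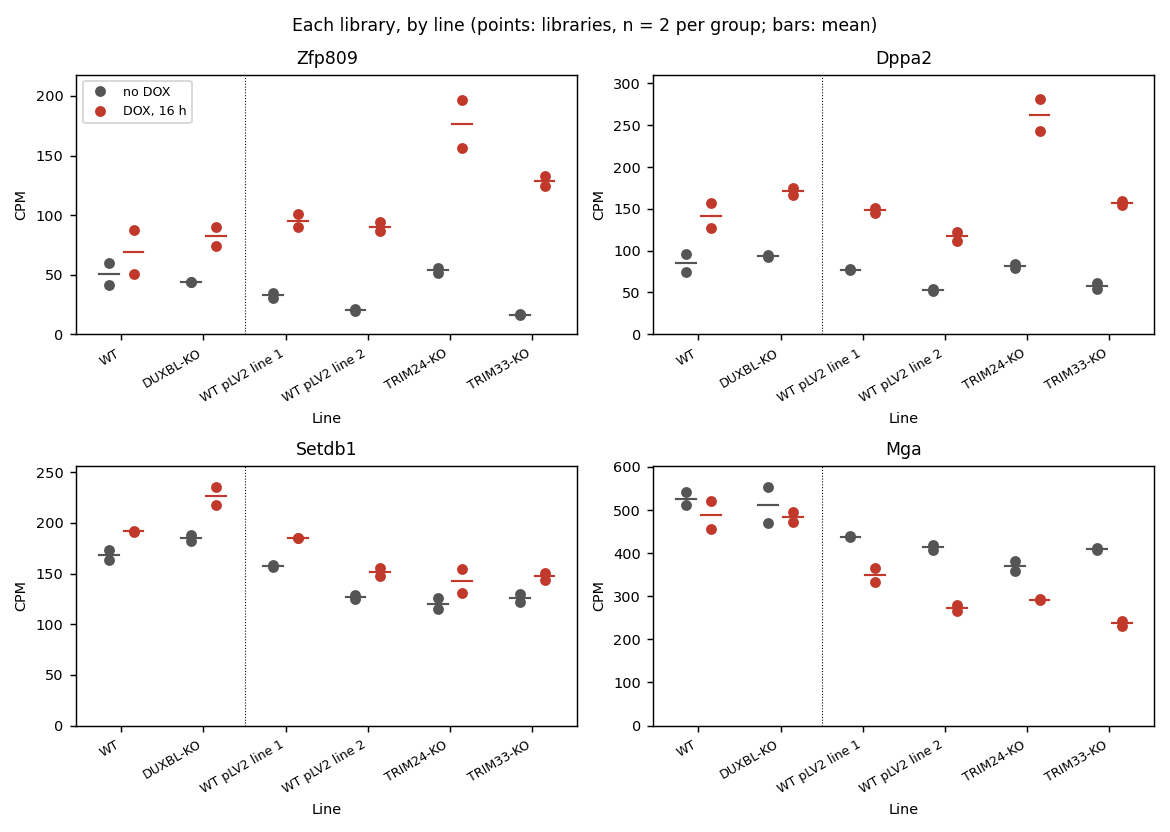
CPM of Zfp809, Dppa2, Setdb1 and Mga in each library without (grey) and with DOX (red), by line, with 2 libraries per group and a bar at their mean; the dotted line separates the plain set (left) from the pLV2 set, which were scaled apart. Zfp809 reaches 156 and 197 CPM in the treated libraries labelled TRIM24-KO, and Mga is lowest in treated TRIM33-KO libraries.

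Among the 9 PRC1.6 members, none rose in any line, and Mga, the large scaffold that pairs with Max, fell in all 4 pLV2 lines. Its untreated libraries read 412 and 407 CPM in TRIM33-KO, 408 and 419.5 for WT line 2, 359 and 382 in TRIM24-KO, and 439.99 and 437 for WT line 1. The treated ones read 231 and 243, 267 and 279.7, 291 and 293, and 366 and 333. The treated and untreated libraries of a line never overlapped. The log2 changes were -0.79 ± 0.06, -0.60 ± 0.06, -0.34 ± 0.06 and -0.33 ± 0.06 in that order (adjusted p at most 0.00172, edgeR). In the plain set Mga read 511 and 542 untreated and 456 and 522 treated in WT, and 552 and 469.6 against 495 and 472 in the line labelled DUXBL-KO, with overlap in both. Its partner Max fell in TRIM33-KO (-0.59), line 2 (-0.41) and line 1 (-0.29). E2f6 fell in WT line 2 (-0.38) and TRIM33-KO (-0.48). Pcgf6, the subunit that defines PRC1.6, passed in line 2 (-0.23, adjusted p = 0.0387), with -0.20 in TRIM33-KO (adjusted p = 0.0552). L3mbtl2 fell in line 1 (-0.29). Rybp (-0.30) and Yaf2 (-0.75 ± 0.25, from 6.81 and 8.45 CPM to 3.56 and 5.64) fell in TRIM33-KO. The ubiquitin ligases Rnf2 and Ring1 passed in no line. Mga kept its call in all 4 lines in each of 8 other settings. The line 1 call was lost without DOX replicate 2 (-0.26, adjusted p = 0.0542).

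H3K9 methylation members moved both ways. Setdb1, the methyltransferase that KRAB zinc fingers recruit, rose in the 4 pLV2 lines by 0.22 to 0.25 in log2. Its TRIM33-KO libraries read 122 and 130.2 CPM untreated and 151 and 144 treated, and those labelled TRIM24-KO 115 and 126 against 131 and 155. Line 2 read 129 and 125 against 156 and 147, and line 1 read 159 and 157 against 185 and 185. No line overlapped, yet the rises were small (adjusted p 0.0176 to 0.0452, edgeR), and the calls were not stable. The one in TRIM24-KO was lost in 5 of 8 other settings: RLE factors (adjusted p = 0.0518), no filter (0.106), library sizes without CT010467.1 (0.05901), DESeq2 (0.0638) and only the groups compared (0.134). It was also lost in 3 of 4 fits with a library left out, and without TRIM24-KO DOX replicate 2 the value was 0.13 (adjusted p = 0.370). With a library left out the call was lost in 4 of 4 fits in line 1 and in 2 of 4 in both line 2 and TRIM33-KO. In the plain set the libraries read 174 and 164 against 192 and 191 in WT and 188 and 182 against 218 and 236 in the line labelled DUXBL-KO. The latter difference passed only with the block (log2 0.29, adjusted p = 0.0427).

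Other members of this class fell. Ehmt2 (G9a) changed by -0.38 in TRIM33-KO, -0.40 in line 2 and -0.29 in line 1, and its partner Ehmt1 by -0.21 in TRIM33-KO. Mphosph8, the chromodomain subunit of the HUSH silencing complex, changed by -0.32, -0.29 and -0.23 in TRIM33-KO, line 2 and line 1. Suv39h2 fell in line 2 (-0.37) and TRIM33-KO (-0.49), where its relative Suv39h1 rose (0.47 ± 0.15, adjusted p = 0.0197). Suv39h1 stood at 14.7 and 11.4 CPM in untreated and 17.7 and 18.4 in treated TRIM33-KO libraries. Atf7ip, the Setdb1 cofactor, passed in no line. Of the 3 HP1 proteins, Cbx3 (HP1 gamma) alone passed, in TRIM33-KO (-0.27, adjusted p = 0.0250), and lost that call with any of the 4 libraries left out, with RLE factors and with DESeq2.

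In the LSD1-CoREST-HDAC class both deacetylases had positive changes in all 6 lines, but each passed in only 2. The scaffold Rcor1 had negative changes and passed in 3. Hdac1 rose by 0.20 in line 2 and 0.33 in TRIM33-KO, where its libraries went from 175 and 177 to 223 and 219 CPM. Hdac2 rose by 0.22 in TRIM24-KO and 0.20 in TRIM33-KO. Rcor1 (CoREST) changed by -0.26 in TRIM33-KO, -0.28 in line 2 and -0.31 in line 1, and Kdm1a by -0.17 in TRIM33-KO (adjusted p = 0.0496). Zmym2, a zinc finger partner of LSD1, passed in no line. For Hdac1, 29.3% of the 75-base stretches of its transcripts also occur in another gene, on either strand, most often Gm10093.

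Morc3, a silencing ATPase, fell in line 2 (-0.29), TRIM24-KO (-0.22) and TRIM33-KO (-0.39), from 109.8 and 109 to 80.7 and 85.7 CPM in the last. Of the other chaperones and remodelers only Chaf1a passed, rising by 0.16 in TRIM33-KO (adjusted p = 0.0331). Of the 75-base stretches of its transcripts, 48.2% also occur in another gene, on either strand, most often Ubxn6. Chaf1b, Daxx, Atrx, Hells and Smchd1 passed in no line. Kat5 fell in line 2 (-0.40), TRIM24-KO (-0.30) and TRIM33-KO (-0.55, from 29.9 and 32.6 to 20.8 and 21.8 CPM), while the p400 ATPase gene Ep400 passed in no line. Rif1 rose in TRIM24-KO alone (0.28 ± 0.06, from 561 and 531 to 667 and 662 CPM), and the difference of its response from the WT pLV2 lines missed the threshold (0.30 ± 0.08, adjusted p = 0.135). Sumo2 fell in TRIM33-KO (-0.22), and the insulator protein gene Ctcf passed in no line.

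Whether the DOX response differed between lines was tested as an interaction. In the pLV2 set 1 member passed against the mean of both WT lines in each knockout. Dppa2 rose more in the libraries labelled TRIM24-KO, by 0.64 ± 0.10 in log2 (adjusted p = 0.00597, edgeR), where 0.437% of genes passed, 0.354% up and 0.083% down. Zfp809 rose more in TRIM33-KO, by 1.12 ± 0.13 (adjusted p = 0.00151), where 0.575% did, 0.498% up and 0.0774% down. Against WT line 2 alone neither passed: Dppa2 gave 0.54 (adjusted p = 0.0509) and Zfp809 0.83 (adjusted p = 0.299). Leaving out TRIM24-KO DOX replicate 2, the library with the high CT010467.1 share, gave 0.49 for Dppa2, also short of the threshold, as did leaving out TRIM24-KO replicate 1 without DOX (0.61). The TRIM33-KO differences of Mga (-0.33 ± 0.08) and Dppa2 (0.40 ± 0.10) missed it, both at adjusted p = 0.0926; both passed with DESeq2 (adjusted p = 0.0161 and 0.0109) and with line 1 alone as reference (0.0140 and 0.0293), Mga also with no filter on low counts and Dppa2 also with only the groups compared. No member passed between the 2 WT pLV2 lines, where 0.238% of genes did (0.183% up, 0.0553% down). There 4 members had an unadjusted p under 0.05, as did 1403 of the 18079 genes tested. DESeq2 called 1 member, Zfp809 (0.63, adjusted p = 0.0245). Between WT and DUXBL-KO 0 passed by edgeR or DESeq2, where 0.0% of genes did. An unadjusted p under 0.05 was found for 0 members and 98 of the 18060 genes tested.

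Lines were then compared without DOX. The 2 WT pLV2 lines already differed: 8 members were higher and 13 lower in line 2, and 38.3% of all genes passed (18.9% higher, 19.3% lower). The members' median difference was -0.09, against 0.00 over all genes. The largest differences were in 2 low-level PRC1.6 subunits, higher in line 2. Yaf2 read 2.26 and 3.02 CPM in line 1 and 7.56 and 6.68 in line 2 (log2 1.43 ± 0.26, adjusted p = 0.000349). E2f6 read 9.88 and 11.9 against 22.3 and 21.1 (0.99 ± 0.11, adjusted p = 2.01e-06). TRIM33-KO libraries sat at the level of line 2 for both, with 6.81 and 8.45 CPM of Yaf2 and 21.1 and 21.8 of E2f6. The libraries labelled TRIM24-KO lay between the WT lines, with 5.53 and 3.83 of Yaf2 and 15.4 and 15.0 of E2f6. Zfp809 (-0.67), L3mbtl2 (-0.57), Dppa2 (-0.55), Ehmt2 (-0.54), Dppa4 (-0.52) and Kat5 (-0.39) were lower in line 2, and Sumo2 (0.42) and Rnf2 (0.40) higher.

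The libraries labelled TRIM24-KO differed most from the mean of both WT pLV2 lines, with 11 members higher and 17 lower, where 43.4% of all genes passed (20.9% higher, 22.5% lower). The median was -0.11 for the members and -0.02 for all genes. With RLE factors, and without CT010467.1, the split was 12 and 13. Ehmt2 read 386 and 337 CPM there, against 175 and 173 in line 1 and 120.2 and 119 in line 2 (log2 1.33 ± 0.07, adjusted p = 4.17e-10). Rybp read 209 and 178 against 83.6 and 85.6 in line 1 and 80.0 and 73.3 in line 2 (1.26 ± 0.06, adjusted p = 1.2e-10). Atrx, a chromatin remodeler that works with Daxx, read 499 and 445 against 242 to 275 in the WT lines (0.88 ± 0.06). For these 3 genes TRIM24-KO stood clear of every other pLV2 library without DOX. The same held for every other member called higher here except Smchd1, and for some lower ones such as Kdm1a. The share of all genes that did so was not counted. Zfp809 (1.04), Cbx3 (0.76), Suv39h1 (0.54), Dppa4 (0.47), Ehmt1 (0.38) and Dppa2 (0.34) were also higher. The reference line mattered here too: with only line 2 as reference Dppa2 differed by 0.62 and Dppa4 by 0.72, and with only line 1 by 0.071 (adjusted p = 0.536 for Dppa2) and 0.21. Of the 28 calls, 7 were lost against line 1 alone, where 34% of all genes passed, and 5 against line 2 alone, where 48.1% did. The largest fall was that of Ep400 (-0.35), and all 17 falls were within 1.5-fold. A list of 19 fibroblast genes, chosen because feeder cells are among the stated culture options, summed to 669 to 773 CPM in untreated libraries labelled TRIM24-KO and to 1580 to 1832 in the WT pLV2 lines. Of the 12 of these genes tested, 1 was higher and 8 lower in TRIM24-KO, 4 higher and 2 lower in TRIM33-KO, and 6 higher and 3 lower in line 2 than in line 1. Fn1 made up most of the sum, at up to 709 CPM in TRIM24-KO and 1803 in the other pLV2 lines, followed by Fstl1 (28.4 and 95.6), Col5a1 (15.6 and 27.1) and Thy1 (18.0 and 20.8). Pdgfra went the other way, at up to 4.21 CPM in TRIM24-KO and less in the other lines, and Postn, Lum and Dcn reached at most 0.18 CPM. Their part in these differences was not tested.

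**Figure D3:**
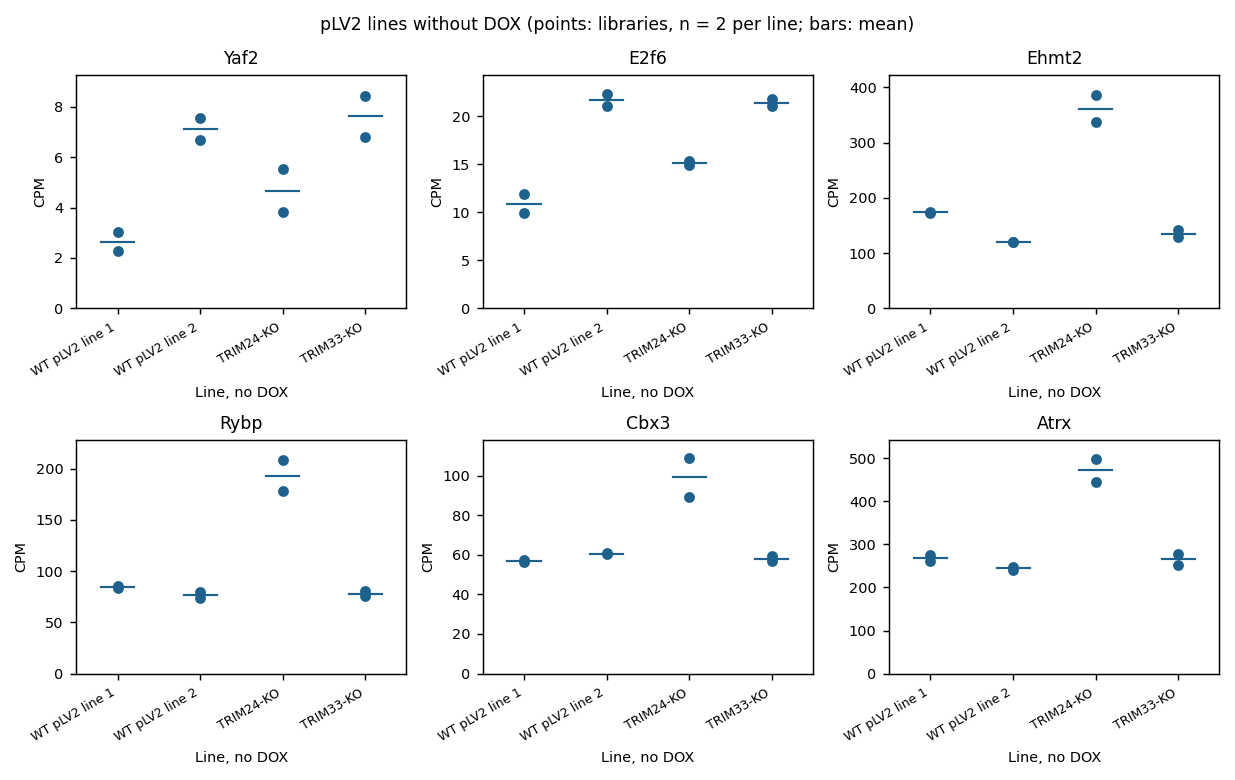
CPM of 6 members in untreated pLV2 libraries, with 2 libraries per line and a bar at their mean; knockout names are the labels. Yaf2 and E2f6 are high in WT line 2 and TRIM33-KO, while Ehmt2, Rybp, Cbx3 and Atrx are high in TRIM24-KO only, at 386 and 337 CPM for Ehmt2.

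TRIM33-KO libraries had 7 members higher and 3 lower than the mean of both WT pLV2 lines, where 23.9% of genes passed (12.8% higher, 11.1% lower); the medians were -0.05 for the members and 0.00 for all genes. The counts moved with the reference line for members and for all genes, and 38.3% of all genes differed between the WT lines. Against line 1 alone 9 members were higher and 12 lower, where 20.2% and 20.6% of all genes were. Against line 2 alone only Atf7ip passed (0.44, adjusted p = 0.00213), where 1.13% of all genes were higher and 0.387% lower. Atf7ip read 225 and 252 CPM in TRIM33-KO, 170.5 and 166 in line 1 and 180 and 172 in line 2 (0.47 ± 0.06 against the mean, adjusted p = 4.23e-05). Yaf2 (0.81), E2f6 (0.48), Sumo2 (0.35), Rnf2 (0.21), Ctcf (0.19) and Smchd1 (0.19) were the others higher, and Zfp809 (-0.65), L3mbtl2 (-0.21) and Morc3 (-0.16) the lower ones. E2f6 and L3mbtl2 had the opposite sign against line 2 alone, at -0.021 and 0.071.

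In the plain set no member passed between DUXBL-KO and WT without DOX, where 0.0388% of genes did. An unadjusted p under 0.05 was found for 4 members and for 1623 of the 18060 genes tested. Cbx3 read 97.0 and 102 CPM in the libraries labelled DUXBL-KO and 159 and 155 in WT (log2 -0.66 ± 0.08, adjusted p = 0.0735). Ehmt2 read 222 and 235 against 155 and 177 (0.46 ± 0.10, adjusted p = 0.212). Both passed with the block (adjusted p = 0.00593 and 0.0250), with DESeq2 and with no filter on low counts. Yaf2 read 3.93 and 4.22 against 6.44 and 6.07 and passed in none of these settings.

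Some of these line differences were shared by the genes around the member. In the libraries labelled DUXBL-KO the 76 tested genes within 5 Mb of Cbx3 had a median log2 difference from WT of -0.91, and 66 were lower, beside -0.10 over the 810 tested genes of its chromosome. In TRIM24-KO against the WT pLV2 lines the 69 genes near Cbx3 had a median of 0.74, with 57 higher, beside 0.76 for Cbx3 itself. The 19 genes near Rybp had a median of 0.89, with 17 higher, beside 1.26 for Rybp. Both genes lie on chromosome 6, whose 820 tested genes had a median of 0.20, below the medians of these 2 stretches. Ehmt2, Zfp809, Atrx and Suv39h1 stood apart from their surroundings in the same comparison, whose medians were -0.03, 0.02, -0.02 and -0.06. Between the WT pLV2 lines the chromosomes of Rnf2, Ctcf, Sumo2 and Cbx1 differed about as much as the stretches near these genes. Around Rnf2 the median was 0.51 and over chromosome 1 it was 0.43; around Ctcf it was 0.38 and over chromosome 8 0.31. Around Sumo2 and Cbx1, both on chromosome 11, the medians were 0.32 and that of the chromosome 0.40. Yaf2 and E2f6 were higher in line 2 although their neighbours (-0.17 and -0.23) and their chromosomes (-0.20 and -0.07) were lower. In TRIM33-KO, against the mean of both WT pLV2 lines, the neighbourhood median was 0.31 around Atf7ip and 0.30 around Rnf2. Over their chromosomes it was 0.21 and 0.29. The stretch near Atf7ip already differed between the WT lines, with a median of 0.44 in line 2 minus line 1, beside 0.07 for Atf7ip itself. Neighbourhood medians against line 2 alone were not computed. What sets the level of a region or a chromosome was not tested.

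**Figure D4:**
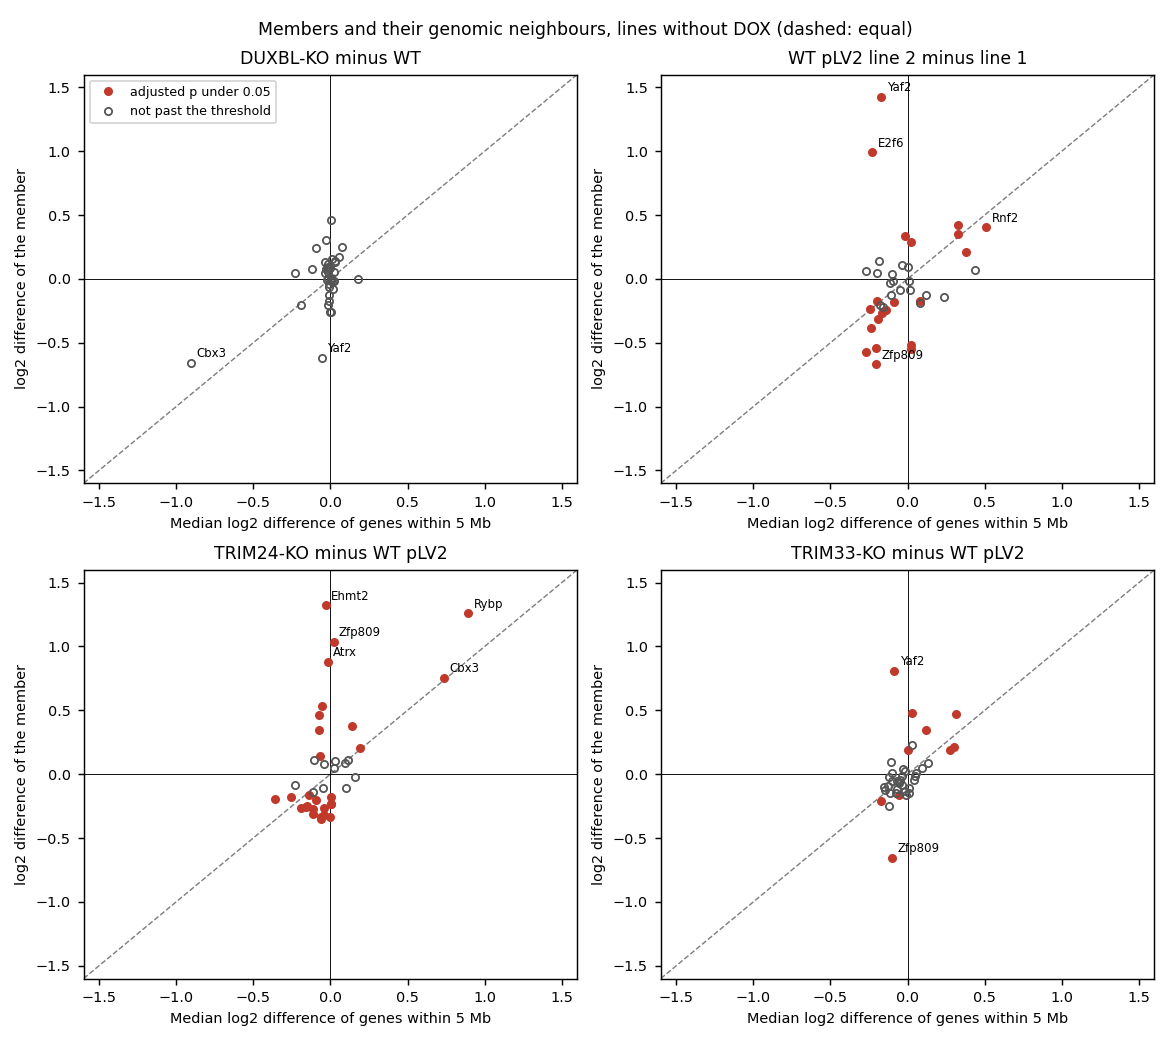
Log2 difference between lines without DOX of each member (vertical axis) and median of the other tested genes within 5 Mb of it (horizontal axis), in 4 comparisons; filled points have adjusted p under 0.05, the dashed line marks equal values and knockout names are the labels. Cbx3 lies near the dashed line at 0.76 and 0.74 in TRIM24-KO, while Ehmt2 lies on the vertical axis.

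Further genes of the same pathways were read from lists of 94 genes, all tested. With DOX 12 rose and 41 fell in TRIM33-KO, 7 and 33 in WT line 2, 7 and 19 in WT line 1, and 11 and 11 in TRIM24-KO, with median log2 changes of -0.21, -0.14, -0.06 and -0.05, beside -0.09, -0.07, -0.03 and 0.00 over all genes. The shares past the threshold were 56.4%, 42.6%, 27.7% and 23.4%, against 36.6%, 26.8%, 16.3% and 16.4% of all genes. Of 9 cohesin genes, which hold chromatin loops and sister chromatids, 6 fell in TRIM33-KO, 5 in line 2, 2 in TRIM24-KO and 0 in line 1, where 20.1%, 14%, 4.94% and 6.25% of all genes fell, and 0 rose in these lines. Of 24 other Polycomb genes, 12 fell and 3 rose in TRIM33-KO, 10 and 1 in line 2, and 11 and 3 in line 1, while in TRIM24-KO 3 fell and 5 rose. Of 15 genes of SUMO conjugation and removal, 8 fell in TRIM33-KO, 7 in line 2, and 4 each in line 1 and TRIM24-KO. Of 17 genes of the CoREST, NuRD and SIN3 deacetylase complexes, 7 fell and 3 rose in TRIM33-KO and 1 fell and 2 rose in TRIM24-KO, while line 2 had 7 falls and 1 rise and line 1 had 3 and 1. The 14 genes of the TIP60-p400 complex had 4 falls and 1 rise in TRIM33-KO, 1 fall and 0 rises in TRIM24-KO, 2 falls and 1 rise in line 2, and 0 of either in line 1. Of 9 further KAP1, HUSH and H3K9 methylation genes, 3 fell and 2 rose in TRIM33-KO and 0 fell and 2 rose in TRIM24-KO, while line 2 had 2 of each and line 1 had 1 of each. The 6 histone chaperones had 1 fall and 2 rises in TRIM33-KO and 0 falls and 1 rise in each of the other pLV2 lines. The chaperones' median changes were positive, at 0.11 to 0.15. Senp7, a SUMO protease, was the only one of the SUMO genes to rise: by 1.596 ± 0.14 in TRIM33-KO, 1.33 ± 0.14 in line 2, 1.00 ± 0.16 in line 1 and 0.93 ± 0.14 in TRIM24-KO, each with an adjusted p of at most 0.000185 by edgeR. Cbx8, a chromodomain subunit of canonical PRC1, changed by -2.14 ± 0.65 in line 1. Pcgf5, a variant PRC1 subunit, rose by 0.83 in TRIM24-KO, and Phc2, a Polyhomeotic subunit, by 0.80 in line 2. Gse1, a partner of CoREST, changed by -0.91 in TRIM33-KO.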

How the data were processed

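The authors deposited raw counts per gene and per repeat subfamily, 1 column per library, per the file headers. Per the labels' protocols, RNA was rRNA-depleted, made into strand-specific libraries and sequenced as 75-base read pairs. The submitters' processing notes name bcl2fastq 2.20.0, cutadapt 1.18, STAR 2.7.6a and mm10. The counting tool and its treatment of reads that fit several places are not given in the sources used here. Groups were taken from titles.

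The members and lists were chosen with earlier results of these data known. Gene IDs were matched to GENCODE M21 (54435 with version, 792 without, 260 unmatched). The 18060 (plain set) and 18079 (pLV2 set) genes kept by filterByExpr were fitted apart with edgeR 4.0.16 (R 4.3.3), TMM scaling, glmQLFit and glmQLFTest, with Benjamini-Hochberg adjustment over all genes. SE is the absolute log2 change over the square root of F. Common biological variation was 17.8% in the plain and 8.55% in the pLV2 set. All members were described by role. The rule asked for the 10 largest called changes per comparison to be named, with library values for members called one way in 4 of the 6 DOX comparisons or with the 8 largest changes, and the 2 largest called changes of the related lists per DOX comparison; members named beyond it were chosen after their values were seen. The 5 Mb neighbourhoods, the 75-base sharing and the E-box search were chosen after the data were seen. The 75-base stretches were those of GENCODE M21 transcripts, and a match on either strand of another gene's transcripts counted. Some matches may therefore be ones that strand-specific reads tell apart. Intervals and SEs cover these libraries only.

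Replicate numbers were taken to pair the plain libraries, whose same-numbered deviations correlated at 0.34 to 0.79 in all 6 pairs of groups. The main fits did not include this pairing. Fits with the replicate number as a block are given as an alternative. The numbers come from the titles, which do not say what they share. Alternatives were RLE factors, DESeq2 1.42.0, other filters, other library sizes, a replicate block, fewer groups, either WT pLV2 line as reference, and leaving out each library.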

Additional observations from a re-analysis of the deposited data

Results flagged for a closer look

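The DOX response of Dppa2 differed between the libraries labelled TRIM24-KO and the mean of both WT pLV2 lines by 0.64 in log2, by the interaction test across all genes. Its own changes were 1.68 in TRIM24-KO, 0.94 in WT line 1 and 1.15 in WT line 2. The difference passed in 9 of 10 other settings (adjusted p 3.1e-06 to 0.0174) but missed the threshold against line 2 alone, and in 2 of 12 fits with a library left out.

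The DOX response of Zfp809 differed between TRIM33-KO and the mean of both WT pLV2 lines by 1.12. Its changes were 2.96 in TRIM33-KO, 1.54 in line 1 and 2.13 in line 2, and its untreated level was lowest in TRIM33-KO. The call held in all 12 fits with a library left out and missed the threshold against line 2 alone.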

How the results depend on the processing

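The counts below are members past the threshold. With DOX in WT the count was 0 and became 1 (Dppa2) with RLE factors, no filter, repeats in library sizes, DESeq2 and the replicate block. In DUXBL-KO 1 became 2 with no filter, DESeq2 or only the groups compared, and 3 with the block. With only the groups compared the counts were 18 in line 1, 7 in line 2 and 4 in TRIM24-KO. DESeq2 gave 9 in line 2 and 14 in TRIM33-KO. DUXBL-KO minus WT went from 0 to 2 with no filter, DESeq2 and the block. TRIM33-KO minus WT gave 21 against line 1 alone and 1 against line 2 alone. The TRIM24-KO interaction gave 0 against line 2 alone. The TRIM33-KO interaction gave 3 against line 1 alone, 0 against line 2 alone, 2 with no filter or only the groups compared, and 3 with DESeq2. The interaction between the WT pLV2 lines gave 1 (Zfp809) with no filter and with DESeq2. The causes were not tested.

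With each library left out in turn, the counts ranged from 0 to 1 for DOX in WT, 0 to 0 in DUXBL-KO, 3 to 6 in line 1, 9 to 13 in line 2, 3 to 8 in TRIM24-KO and 13 to 15 in TRIM33-KO. They ranged from 17 to 24 for TRIM24-KO minus WT, 5 to 11 for TRIM33-KO minus WT, 13 to 19 for line 2 minus line 1 and 0 to 0 for DUXBL-KO minus WT. For the interactions they were 0 to 1 (TRIM24-KO), 1 to 1 (TRIM33-KO) and 0 to 0 in the other pair. Such fits leave 1 library in a group, assumed to vary like the rest.

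Among the calls of the report, signs reversed in these cases, all against WT line 2 alone: Smchd1 in TRIM24-KO minus WT (-0.027), and L3mbtl2 (0.071) and E2f6 (-0.021) in TRIM33-KO minus WT. Members not called in TRIM24-KO minus WT can be called with either sign against 1 line alone: E2f6 at 0.48 (line 1) and -0.52 (line 2), Yaf2 at 0.81 and -0.61, and L3mbtl2 at -0.39 and 0.18. Same-numbered pLV2 libraries correlated at -0.25 to 0.41, with 7 of 28 pairs of groups over 0.1, and between untreated and treated libraries of a line at 0.41 in line 2, 0.28 in TRIM24-KO, 0.11 in TRIM33-KO and 0.03 in line 1, so not every pair was over 0.1 and the numbers were not taken to pair them. With the replicate block the pLV2 counts with DOX were 11 in line 1, 16 in line 2, 8 in TRIM24-KO and 23 in TRIM33-KO. No call named in the report was lost with the block. Yaf2, at 2.19 to 8.45 CPM in the pLV2 libraries, had SEs of 0.20 to 0.26 in its called comparisons there, and Zfp809 one of 0.28 with DOX in the plain set.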
